A study of Mus musculus with 12 samples.

Results

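The genes described here are 10 mouse cytokines and chemokines of inflammation, namely Il1b, Il1a, Il18, Tnf, Ccl2, Ccl7, Ccl12, Ccl3, Ccl4 and Cxcl10. They were taken by symbol, and each was present once among the 55809 gene symbols of both count tables. Il1b and Ccl12 were chosen by their higher counts after AAV-Cre than after AAV-GFP, so the values of all 10 genes in that comparison are given as a description without a test. That choice is not stated to have used the comparison of TOM positive with TOM negative cells, which was tested. The set was chosen with earlier results of these data known, so that test is not known to be independent of the choice.

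RNA was sequenced from 4 groups of sorted mouse cells with 3 libraries each, 12 in all. TOM positive and TOM negative cells came from the hypothalamus of untreated Mc4r-Cre; Ai14 mice that were 4 weeks old. In these mice Cre is made where Mc4r, a melanocortin receptor gene of appetite control, is or was active, and the Ai14 allele turns on the red fluorescent protein tdTomato wherever Cre has acted. The AAV-Cre and AAV-GFP groups were cells of the PVH, the paraventricular nucleus, a hypothalamic centre of appetite and stress control. These mice were Otp fl/fl; Ai14 and 26 weeks old. An adeno-associated virus (AAV) carrying Cre or GFP had been injected 12 weeks before dissection. Otp encodes a homeobox factor of hypothalamic neurons, and its floxed alleles are open to deletion by Cre. AAV-Cre cells were sorted as TOM positive and AAV-GFP cells as GFP positive, so the sort, the loss of Otp and the presence of Cre cannot be told apart in this pair. The labels do not say which promoter drove the viral genes, or whether each library stands for an animal of its own. P-values therefore measure the spread between libraries, which may be technical.

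Interleukin-1, tumour necrosis factor and the chemokines are signals that microglia, the resident macrophages of the brain, and other cells release when they sense damage or microbes. Toll-like receptors and the receptors of these cytokines activate NF-kappaB, a transcription factor that turns on many of the same cytokine genes. Interleukin-1 beta and interleukin-18 are made as inactive precursors and are cut by caspase-1 in a protein complex called the inflammasome. Chemokines bind receptors on leukocytes and microglia and direct their movement. Several of these genes respond within minutes to hours and are known to be induced when tissue is dissociated.

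Library totals ran between 13506018 and 27827853 counts. TOM positive libraries had a count for 17024, 16011 and 18160 genes, against 19023, 18453 and 18998 genes in TOM negative libraries. AAV-Cre libraries had a count for 14747, 16337 and 16988 genes, against 20778, 21515 and 23902 genes in AAV-GFP libraries. Otp had 12, 9 and 10 counts in AAV-Cre libraries, against 91, 102 and 38 counts in AAV-GFP libraries, so every AAV-Cre library held fewer of the targeted gene, although it did not pass the test (log2 fold change -2.84 ± 0.87, SE, adjusted p = 0.134). The study set out to sort neurons, and by their markers the sorted cells were mixed. A list of 12 neuronal genes summed to between 347 and 405 CPM (counts scaled to library size) in TOM positive libraries, against 48.5 to 83.1 CPM in TOM negative libraries. It summed to between 1830 and 2094 CPM in AAV-Cre libraries, against 1034 to 2153 CPM in AAV-GFP libraries. A list of 8 oligodendrocyte genes summed to between 14363 and 86374 CPM over the 12 libraries. A list of 18 microglia genes summed to between 565 and 1269 CPM in TOM positive libraries, against 30348 to 36214 CPM in TOM negative libraries. It summed to between 7310 and 14959 CPM in AAV-Cre libraries, against 3316 to 6697 CPM in AAV-GFP libraries. In bulk RNA, fewer cells of a type and less RNA per cell cannot be told apart.

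The genes lie in 6 places in the genome, in the GENCODE vM30 coordinates that the count files carry. Il1a (chr2:129141530-129151892) and Il1b (chr2:129206490-129213059) are neighbours on the minus strand of chromosome 2. Ccl2 (chr11:81926397-81928279), Ccl7 (chr11:81936538-81938351) and Ccl12 (chr11:81992671-81994226) lie on the plus strand of chromosome 11. Ccl3 (chr11:83538670-83540181, minus strand) and Ccl4 (chr11:83553410-83555509, plus strand) lie further along the same chromosome. Tnf is at chr17:35418357-35420983 on the minus strand, Cxcl10 at chr5:92494497-92496748 on the minus strand and Il18 at chr9:50466127-50493140 on the plus strand. Exons of Il1b, Il1a, Ccl3 and Cxcl10 overlap a gene on the opposite strand (Il1bos, Gm14023, ENSMUSG00000120024 and Art3), and the counting did not use strand. Of the 50-base stretches of the transcripts in GENCODE vM21, 9.14% of Il1a were shared with Gm14023 and 3.59% of Cxcl10 with Art3. The other 8 genes shared none with another gene, so the related chemokines were not confused with each other at that length.

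Promoters are shown for 4 genes that represent the patterns below: Il1b and Ccl12, the pair chosen for the AAV-Cre comparison, Cxcl10, whose window held the most motifs, and Il18, whose levels overlapped in both comparisons. Each run is the 250 bases before the transcription start, from RefSeq on GRCm38.p6, a different build from the coordinates above. Capitals mark matches to any of 4 motifs, searched on both strands: the NF-kappaB site, TGANTCA (bound by AP-1), GAAANNGAAA (bound by interferon regulatory factors) and TATAAA (the TATA box).
Il1b, chr2:129371140-129371389, minus strand: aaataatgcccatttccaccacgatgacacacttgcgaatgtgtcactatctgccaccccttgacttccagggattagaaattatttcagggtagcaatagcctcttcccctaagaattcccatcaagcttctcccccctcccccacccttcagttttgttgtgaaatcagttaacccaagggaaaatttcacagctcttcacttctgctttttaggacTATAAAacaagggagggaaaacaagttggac
Ccl12, chr11:82101595-82101844, plus strand: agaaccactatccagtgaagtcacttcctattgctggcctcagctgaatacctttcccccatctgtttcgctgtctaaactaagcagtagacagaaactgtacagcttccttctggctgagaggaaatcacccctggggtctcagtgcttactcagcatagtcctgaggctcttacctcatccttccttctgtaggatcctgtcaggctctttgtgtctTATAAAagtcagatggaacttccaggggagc
Cxcl10, chr5:92348890-92349139, minus strand: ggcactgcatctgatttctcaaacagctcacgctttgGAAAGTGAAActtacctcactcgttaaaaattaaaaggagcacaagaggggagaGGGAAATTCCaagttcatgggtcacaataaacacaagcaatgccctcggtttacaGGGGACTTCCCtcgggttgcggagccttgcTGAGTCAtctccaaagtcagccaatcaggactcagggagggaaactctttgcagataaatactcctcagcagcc
Il18, chr9:50554450-50554699, plus strand: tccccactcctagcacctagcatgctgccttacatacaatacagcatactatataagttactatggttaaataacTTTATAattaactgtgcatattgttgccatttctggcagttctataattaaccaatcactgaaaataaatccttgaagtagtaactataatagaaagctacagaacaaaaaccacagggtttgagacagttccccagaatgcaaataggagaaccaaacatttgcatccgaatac

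RefSeq windows were found for 7 of the 10 genes, all but Ccl2, Ccl4 and Ccl7, and the search covered 300 bases, from 250 before to 50 after the start. TATAAA on the printed strand lay within 40 to 20 bases before the start in 4 of the 7 genes, against 1.91% of all 32851 promoters. It spanned -31 to -26 in Il1b and in Ccl12, -32 to -27 in Il1a and -29 to -24 in Tnf. In Il18 the letters occurred only on the opposite strand, at -175 to -170. Anywhere in the window and on either strand, 13.6% of all promoters held TATAAA. Cxcl10 was the only one of the 7 with NF-kappaB matches, at -159 to -150 and in 2 overlapping frames from -104 to -94, and 8.46% of all promoters held one. Cxcl10 also held GAAANNGAAA at -213 to -204, found in 3.44% of all promoters, and TGANTCA at -74 to -68, found in 7.81%. Il1a held TGANTCA at -12 to -6, and Ccl3 held none of the 4. A match is a description of the letters in this window.

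The first comparison asks how Mc4r-lineage cells differ from the other sorted cells of the hypothalamus. Of the 10 genes, 8 were lower in TOM positive than in TOM negative cells and none was higher (edgeR quasi-likelihood test, adjusted p under 0.05 over 15228 genes). Over all genes tested, 13.4% were lower, 10.4% were higher and 23.9% passed in either direction. The 8 genes that fell included both interleukin-1 genes, Tnf, Cxcl10 and every CC chemokine of the set except Ccl7. Among the 8, Il1b and Cxcl10 had no count in any TOM positive library. They entered the test through TOM negative libraries alone, so they could pass only as lower. Il18 and Ccl7 did not pass. The median log2 fold change was -4.59 over the 10 genes and -0.02 over all genes tested. The same 8 genes had every TOM positive library below every TOM negative library, as did 25.6% of all genes tested.

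**Figure D1:**
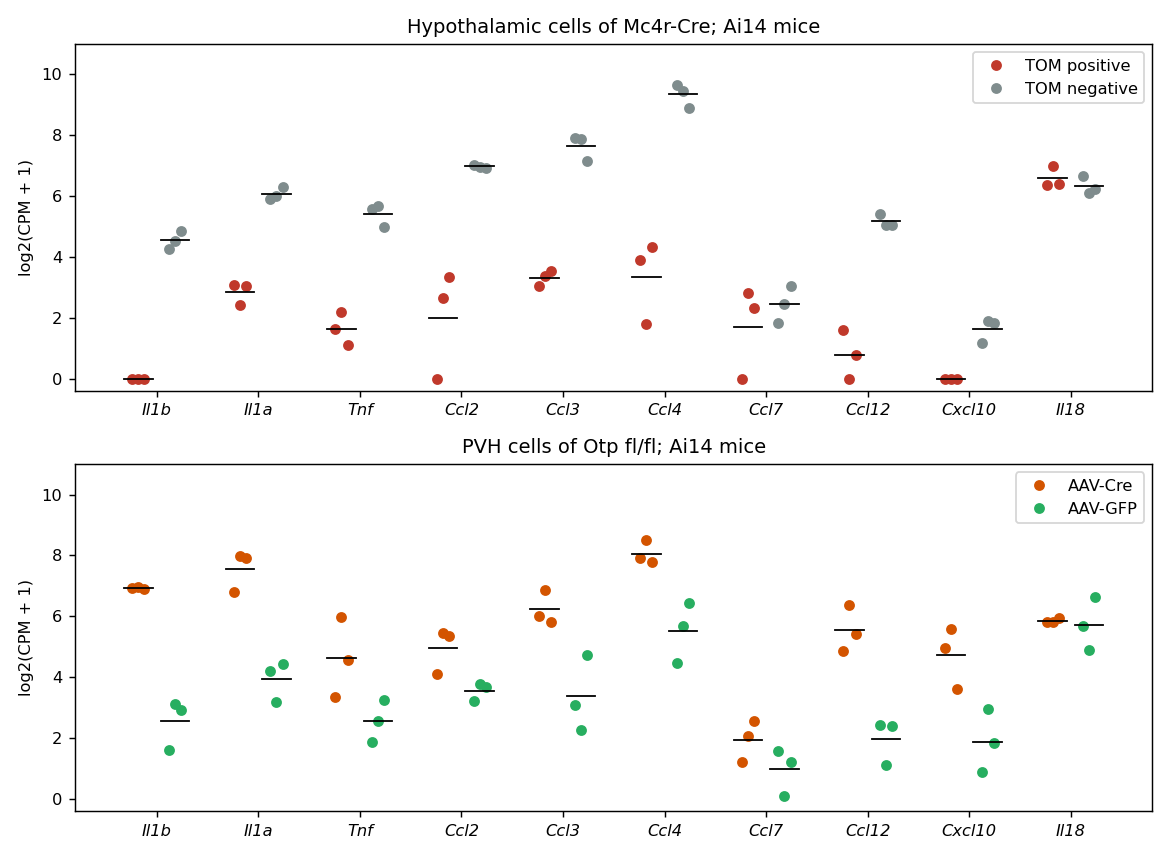
Level of each gene in every library as log2(CPM + 1), with TOM positive and TOM negative cells above and AAV-Cre and AAV-GFP cells below; points are libraries and bars are means of 3. In the upper panel the TOM positive points lie below the TOM negative points for all genes but Ccl7 and Il18, and in the lower panel the AAV-Cre points lie above the AAV-GFP points for all but the same pair.

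Il1b encodes interleukin-1 beta, a fever-inducing cytokine that microglia and macrophages make after stimulation. It had 0 counts in each TOM positive library, against 358, 458 and 603 counts in TOM negative libraries. With 3 counts over the group as the floor, it was at least 599-fold lower (adjusted p = 0.000983). The bound covers counting error only, since reads were not tagged by molecule. Il1a, whose product interleukin-1 alpha is active without cleavage and acts as an alarm signal of injured cells, had 7.47, 4.32 and 7.24 CPM in TOM positive libraries, against 59.3, 63.3 and 76.8 CPM in TOM negative libraries. It fell by 3.39 ± 0.32 on the log2 scale (SE, adjusted p = 0.000640), so some Il1a remained where Il1b was not detected.

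Il18 went its own way. Its product, interleukin-18, drives interferon-gamma production by lymphocytes, and its precursor is made by many resting cells. TOM positive libraries had 80.8, 125.9 and 83.5 CPM, against 100.01, 67.7 and 73.4 CPM in TOM negative libraries. The groups overlapped, and the log2 fold change was 0.27 ± 0.25 (SE, adjusted p = 0.492).

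Tnf encodes tumour necrosis factor, a membrane-bound cytokine that is shed and acts on receptors of most cell types. It had 2.10, 3.54 and 1.13 CPM in TOM positive libraries, against 46.1, 49.99 and 30.8 CPM in TOM negative libraries. It fell by 4.22 ± 0.52 on the log2 scale (SE, adjusted p = 0.00195), and all 3 TOM positive libraries were low.

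Ccl2, Ccl7 and Ccl12 encode attractants of monocytes that act through the receptor CCR2; Ccl12 is a gene of mice without a clear human counterpart. Ccl2 had 0, 5.27 and 9.20 CPM in TOM positive libraries, against 130.3, 124 and 121 CPM in TOM negative libraries. The fold change was -4.68 ± 1.14 (log2, SE, adjusted p = 0.0243), and the call was lost when any 1 TOM negative library was left out (adjusted p = 0.0700, 0.0807 and 0.0592). TOM positive library 1, with no Ccl2 count, stood apart from the other two.
Ccl12 had 2.00, 0 and 0.697 CPM in TOM positive libraries, against 41.7, 32.0 and 32.0 CPM in TOM negative libraries. Its log2 fold change was -5.32 ± 1.22 (SE, adjusted p = 0.0194). That call was lost without any 1 TOM negative library (adjusted p = 0.0673, 0.0698 and 0.0526) and without TOM positive library 3 (adjusted p = 0.0592). Both genes kept groups that did not overlap.
Ccl7 varied widely among TOM positive libraries. It had 0, 177 and 119 counts in TOM positive libraries, against 51, 92 and 157 counts in TOM negative libraries. The groups overlapped and the log2 fold change was -0.51 ± 1.45 (SE, adjusted p = 0.838), with a value of 0.073 when TOM positive library 1 was left out.

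Ccl3 and Ccl4 encode macrophage inflammatory proteins, which attract monocytes, macrophages and T cells. Ccl3 had 7.17, 9.32 and 10.5 CPM in TOM positive libraries, against 240.5, 235 and 139.7 CPM in TOM negative libraries. It fell by 4.51 ± 0.30 on the log2 scale (SE, adjusted p = 0.000181), the smallest adjusted p of the set. Ccl4 had 13.98, 2.45 and 19.1 CPM in TOM positive libraries, against 809, 704 and 476 CPM in TOM negative libraries. It fell by 5.81 ± 0.74 (log2, SE, adjusted p = 0.00227). Both were low in every TOM positive library, and both kept their call whichever library was left out.

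Cxcl10 encodes an attractant of activated T cells that interferons induce and that binds CXCR3. It had 0 counts in each TOM positive library, against 25, 56 and 56 counts in TOM negative libraries. It was at least 57.8-fold lower (adjusted p = 0.0111), and the call was lost without TOM negative library 2 (adjusted p = 0.0615). Leaving out that library left 5 of the 10 genes past the threshold, since Ccl2 and Ccl12 were lost too.

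**Figure D2:**
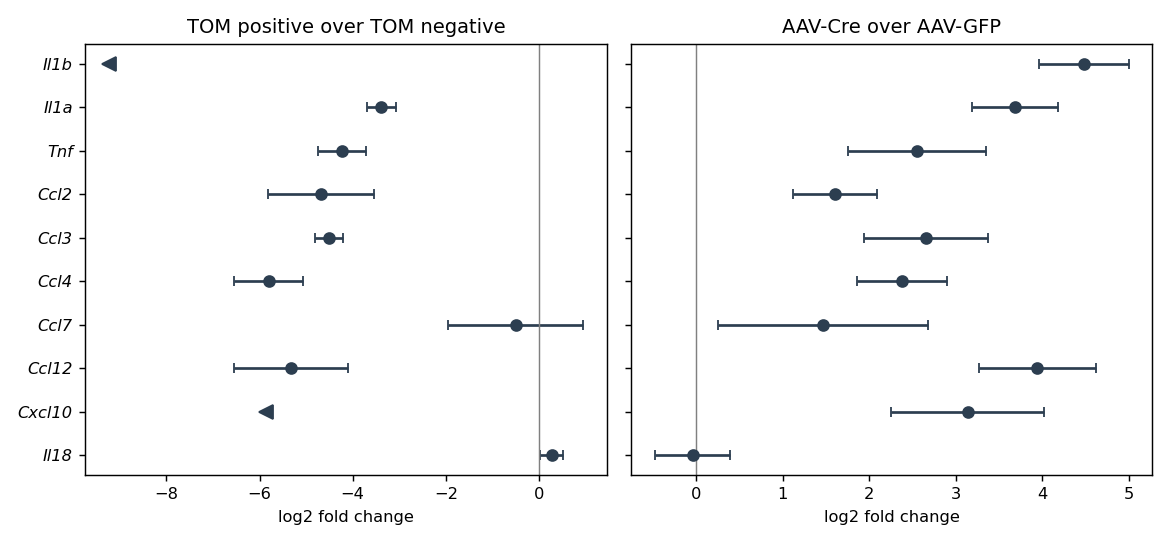
Log2 fold change of each gene with its standard error as a bar, for TOM positive over TOM negative cells on the left and AAV-Cre over AAV-GFP cells on the right. Triangles on the left are bounds for Il1b and Cxcl10, which had no counts in TOM positive libraries; the right panel is a description without a test.

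Several marker lists moved with these genes. Of the 18 microglia genes 17 were lower in TOM positive cells, and the mean summed level was 0.0250 times that of TOM negative cells. It took 0.0935% of counts in TOM positive libraries and 3.12% in TOM negative libraries. The immediate early genes, transcription factors and feedback regulators that respond to stimulation and to dissociation, were also lower, with 12 of 12 past the threshold and a summed level 0.0825 times that of TOM negative cells. Lymphocyte, monocyte and neutrophil, and endothelial lists summed to 0.0373, 0.0510 and 0.0727 times the TOM negative level. Of their tested genes, 6 of 7, 3 of 7 and 4 of 8 were lower. Among these lower genes, 5 of the lymphocyte and 2 of the monocyte and neutrophil list had no TOM positive count, so they could pass only as lower. The gene Csf3r alone had a mean of 132 CPM in TOM negative libraries, where the monocyte and neutrophil list summed to 174 CPM. The list of 7 border macrophage genes went the other way, at 2.78 times the TOM negative level without overlap, and none of its genes passed. Oligodendrocyte genes were higher, 8 of 8, at 3.80 times the TOM negative level, and neuronal genes were higher in 4 of 11 at 5.84 times. The part of these lists in the cytokine differences was not tested. Per 1000 CPM of the microglia list, Il1a had 5.70 to 10.2 CPM in TOM positive libraries, against 1.64 to 2.53 CPM in TOM negative libraries. On the same scale Ccl3 had 8.27 to 16.5 CPM in TOM positive libraries, against 4.60 to 6.67 CPM in TOM negative libraries. Ccl4 overlapped on this scale, with 4.34 to 19.0 CPM in TOM positive libraries and 15.7 to 22.4 CPM in TOM negative libraries. Tnf, Ccl2, Ccl7 and Ccl12 overlapped too. Il1b stayed at 0 in TOM positive libraries, against 0.499 to 0.909 CPM per 1000 in TOM negative libraries. Cxcl10 also stayed at 0 in TOM positive libraries, against 0.0348 to 0.0844 CPM per 1000 in TOM negative libraries. Il18 reached 65.8 to 223 CPM per 1000 in TOM positive libraries, against 1.87 to 2.77 CPM per 1000 in TOM negative libraries. Its CPM overlapped between these groups, while the microglia sum in the denominator was lower in TOM positive libraries.

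The second comparison set AAV-Cre against AAV-GFP cells of the PVH, where the study looked for the molecular basis of excess weight gain. All 3 AAV-Cre libraries lay above all 3 AAV-GFP libraries for 8 of the 10 genes, as they did for 9.87% of the 15408 genes tested. Ccl7 and Il18 overlapped. By the threshold used above, the fit over all genes placed 3 genes as higher (Il1b, Il1a and Ccl12) and none as lower. Those genes kept that place in 3, 2 and 1 of the 6 fits that left out 1 library. Over all genes, 0.630% were called higher, 1.97% lower and 2.60% in either direction. Nothing is read from these counts and they are not taken as a test, because the comparison served to choose the genes. The median log2 fold change was 2.60 over the 10 genes and -0.16 over all genes tested.

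Il1b had 120.9, 122.6 and 117 CPM in AAV-Cre libraries, against 2.06, 7.59 and 6.53 CPM in AAV-GFP libraries. The 3 AAV-Cre libraries were nearly level, with a mean of 120.1 ± 2.96 CPM (SD, n = 3). The log2 fold change was 4.48 ± 0.52 (SE), the largest of the 10, but Il1b was chosen for its rise in this comparison. Il1a had 109.6, 249.8 and 240.1 CPM in AAV-Cre libraries, against 17.6, 8.17 and 20.8 CPM in AAV-GFP libraries. Its log2 fold change was 3.68 ± 0.50 (SE), and AAV-Cre library 1 was the lowest of its group. Il18 again differed from both. It had 55.0, 55.4 and 60.2 CPM in AAV-Cre libraries, which lay inside the AAV-GFP range of 28.7 to 97.6 CPM, and its log2 fold change was -0.05 ± 0.44 (SE).

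Tnf had 9.27, 61.8 and 22.8 CPM in AAV-Cre libraries, against 2.63, 4.84 and 8.57 CPM in AAV-GFP libraries. The lowest AAV-Cre library lay just above the highest AAV-GFP library, and the log2 fold change was 2.55 ± 0.80 (SE). Cxcl10, the interferon-induced chemokine, had 30.2, 46.4 and 11.2 CPM in AAV-Cre libraries, against 0.825, 6.65 and 2.53 CPM in AAV-GFP libraries, a log2 fold change of 3.14 ± 0.89 (SE). In both genes AAV-Cre library 2 was the highest.

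Among the CCR2 ligands, Ccl12 had 28.1, 82.4 and 41.5 CPM in AAV-Cre libraries, against 4.39, 1.16 and 4.28 CPM in AAV-GFP libraries, a log2 fold change of 3.94 ± 0.68 (SE). Ccl2 had 16.3, 42.5 and 40.2 CPM in AAV-Cre libraries, against 8.20, 12.7 and 11.7 CPM in AAV-GFP libraries, a smaller log2 fold change of 1.60 ± 0.49 (SE). Ccl7 had 21, 47 and 71 counts in AAV-Cre libraries, against 38, 1 and 19 counts in AAV-GFP libraries, and the groups overlapped. Its log2 fold change was 1.46 ± 1.21 (SE). Within this cluster of neighbours, Ccl12 had the largest fold change, but it was chosen for its rise in this comparison.

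Of the macrophage inflammatory proteins, Ccl3 had 63.7, 114 and 55.1 CPM in AAV-Cre libraries, against 7.53, 3.83 and 25.6 CPM in AAV-GFP libraries, a log2 fold change of 2.66 ± 0.71 (SE). Ccl4 had 238, 362 and 217 CPM in AAV-Cre libraries, against 21.2, 50.2 and 86.2 CPM in AAV-GFP libraries, a log2 fold change of 2.38 ± 0.52 (SE). AAV-Cre library 2 was the highest of its group for all of the 10 genes except Ccl7 and Il18. The same library had the highest summed microglia list of the 6.

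The microglia list was 2.13 times as high in AAV-Cre as in AAV-GFP libraries, without overlap, and took 1.08% of counts in AAV-Cre libraries and 0.453% in AAV-GFP libraries. Of its 18 genes 1 passed the test, Csf1r, the receptor that microglia need to survive. Immediate early genes summed to 2.20 times the AAV-GFP level, and 2 of 12 passed, Egr2 and Atf3. Csf1r lost its call whichever library was left out, and Egr2 and Atf3 passed in 2 and 1 of the 6 fits that left out 1 library. The part of these lists in the cytokine differences was not tested. Per 1000 CPM of the microglia list, Il1b had 8.20 to 16.0 CPM in AAV-Cre libraries, against 0.462 to 2.29 CPM in AAV-GFP libraries. Il1a had 12.8 to 32.8 CPM per 1000 in AAV-Cre libraries, against 2.46 to 3.94 CPM per 1000 in AAV-GFP libraries. On this scale Ccl12, Ccl3 and Ccl4 also kept groups that did not overlap, while Tnf, Ccl2, Ccl7 and Cxcl10 overlapped. Ccl12 had 3.30 to 5.67 CPM per 1000 in AAV-Cre libraries, against 0.349 to 0.982 CPM per 1000 in AAV-GFP libraries. Ccl3 was almost constant in AAV-Cre libraries, at 7.46 to 7.65 CPM per 1000, against 1.16 to 3.83 CPM per 1000 in AAV-GFP libraries. Ccl4 had 24.2 to 29.7 CPM per 1000 in AAV-Cre libraries, against 4.74 to 15.2 CPM per 1000 in AAV-GFP libraries. Il18 was lower on this scale, with 3.70 to 8.24 CPM per 1000 in AAV-Cre libraries, against 8.65 to 14.6 CPM per 1000 in AAV-GFP libraries. Its CPM overlapped between these groups, while the microglia sum in the denominator was higher in AAV-Cre libraries.

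**Figure D3:**
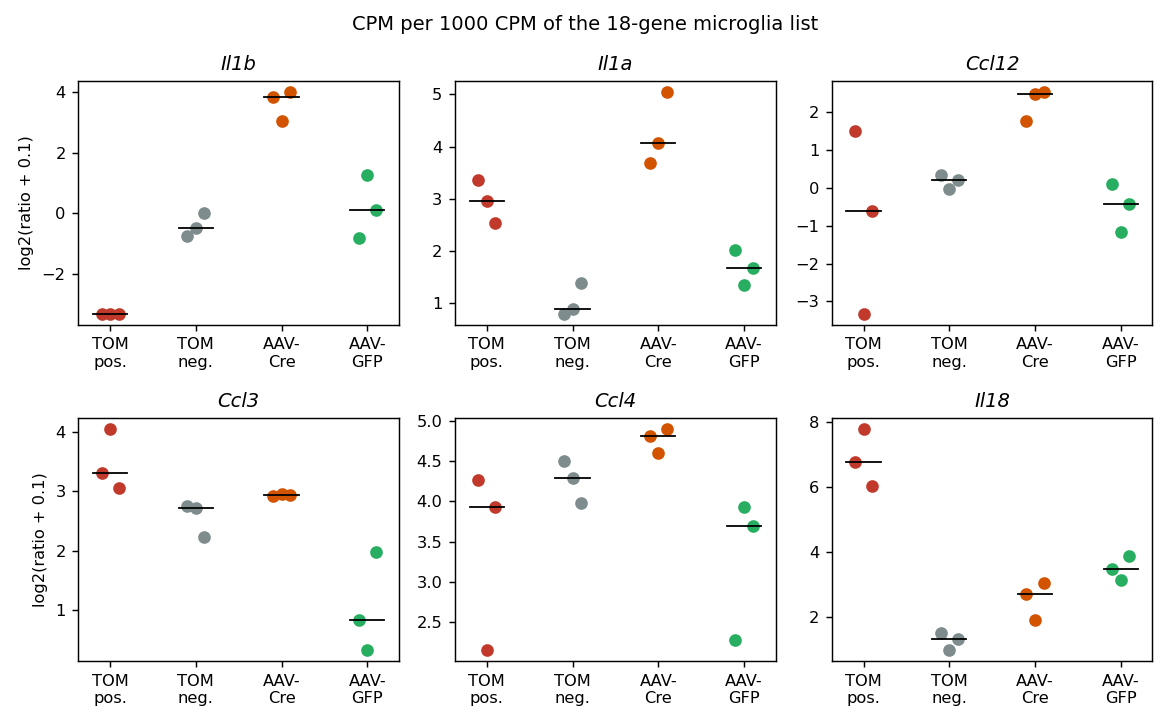
Level of 6 genes per 1000 CPM of the summed microglia list, as log2(ratio + 0.1), with a separate scale for each gene; points are libraries and bars are medians of 3. Il1b, Il1a, Ccl12, Ccl3 and Ccl4 remain higher in AAV-Cre than in AAV-GFP libraries on this scale, and Il18 is lower. Tnf, Ccl2, Ccl7 and Cxcl10, which overlapped between AAV-Cre and AAV-GFP libraries on this scale, are not drawn.

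Markers of other immune cells were checked in the AAV pair. Of 10 monocyte and neutrophil genes, 7 had no count in any AAV-Cre library, among them the defining genes Ly6c2 and Ccr2. These were also low in AAV-GFP libraries, with 0, 3 and 9 counts of Ly6c2 and 25, 0 and 10 counts of Ccr2. AAV-Cre libraries had a count for fewer genes in all, as given above, so missing counts were not confined to this list. The list still summed to 73.6 to 182 CPM in AAV-Cre libraries, against 14.3 to 30.6 CPM in AAV-GFP libraries, and most of the AAV-Cre sum was Csf3r, the receptor gene for granulocyte colony-stimulating factor. Csf3r had 1183, 2669 and 1344 counts in AAV-Cre libraries, against 522, 180 and 306 counts in AAV-GFP libraries. The part of these cells in the cytokine differences was not tested. The 7 border macrophage genes summed to 4.47 to 15.0 CPM in AAV-Cre libraries, against 3.11 to 16.1 CPM in AAV-GFP libraries, and none passed. Lymphocyte genes summed to at most 14.2 CPM in AAV-Cre libraries, against at most 3.79 CPM in AAV-GFP libraries. The 8 endothelial genes summed to 0.0622 to 35.0 CPM in AAV-Cre libraries, against 237 to 433 CPM in AAV-GFP libraries. Of the 7 tested, Emcn alone passed, as lower, with 0 counts in each AAV-Cre library, against 94, 69 and 267 counts in AAV-GFP libraries. It entered the test through AAV-GFP libraries alone, so it could pass only as lower. Emcn lost its call whichever library was left out.

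Levels of different genes were compared as CPM per kilobase of exon. Ccl4 ranked first in 3 of the 4 groups, with 413 ± 118 in AAV-Cre libraries, 79.6 ± 49.3 in AAV-GFP libraries and 1005 ± 258 in TOM negative libraries (SD, n = 3 each). In TOM positive libraries Il18 ranked first with 93.8 ± 24.5 CPM per kilobase, against 17.95 ± 12.9 for Ccl4, and their ranges did not overlap. In TOM negative libraries Ccl4, Ccl3 (268 ± 73.9) and Ccl2 (110.0 ± 4.18) were each separate from the next gene. Il18 and Ccl12 overlapped there, as did Il1a and Tnf, and Il1b (11.8 ± 2.53), Ccl7 and Cxcl10 followed in separate steps. In AAV-Cre libraries Ccl3, Il1a, Ccl12 and Il1b followed Ccl4 at 101, 101, 94.4 and 63.0 CPM per kilobase, each overlapping the next. Il1b was separate from Il18 (55.2 ± 2.81), and Il18 from Ccl2 (29.0 ± 12.7), while Tnf, Cxcl10 and Ccl7 each overlapped the gene above. In AAV-GFP libraries every neighbour in the order overlapped, and Ccl7 (1.40 ± 1.20) and Cxcl10 (1.48 ± 1.33) ranked last.

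**Figure D4:**
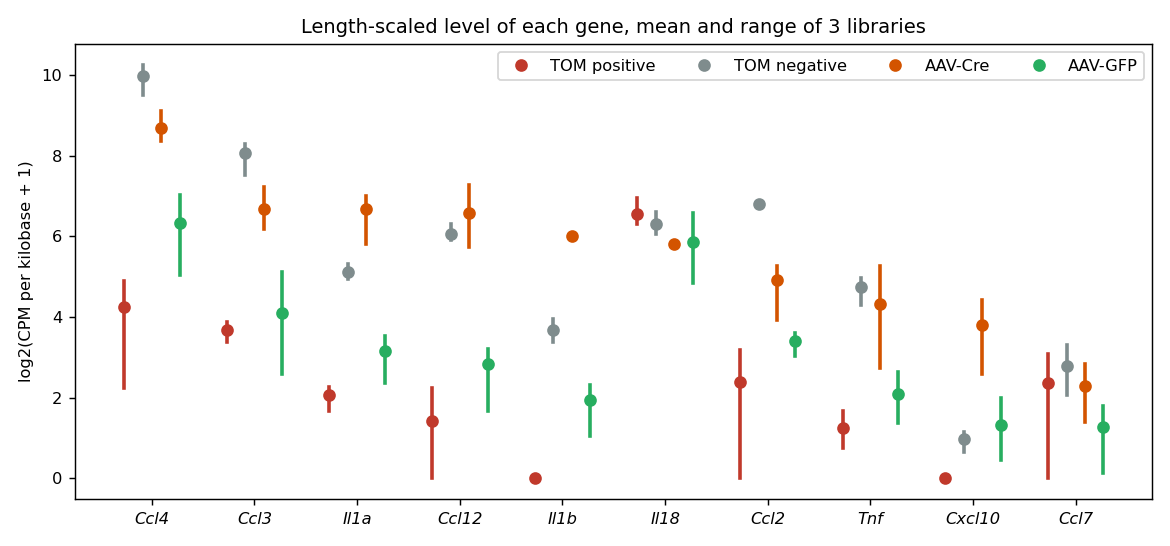
Level of each gene as log2(CPM per kilobase of exon + 1) in the 4 groups; points are group means and lines span the lowest to the highest of 3 libraries. Genes run from the highest to the lowest in AAV-Cre cells, and the group means of Il18 lie between 55.2 and 93.8 CPM per kilobase. The TOM and AAV tables were normalised separately.

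The genes most like Il1b over the 12 libraries were sought by Pearson r of log2(CPM + 1) among 10864 genes. This is a description, since the libraries fall into 4 groups, share 2 sequencing tables and were normalised within each. Tln2, which encodes a talin that links integrins to actin, came first (r = 0.959), followed by Ubash3b, a phosphatase gene of immune receptor signalling (r = 0.949). Il1a was next (r = 0.947), before Garnl3 (r = 0.944) and the heat shock gene Hspa1a (r = 0.939), whose near-identical copy Hspa1b makes its counts uncertain. Of the other cytokines, Cxcl10 ranked 26 (r = 0.896), Ccl12 ranked 28 (r = 0.895) and Ccl4 ranked 92 (r = 0.829). Il18 ranked 8984 (r = -0.367).

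The other genes of these pathways were read from 9 lists holding 143 genes. In the same fits, 104 of them were tested in the TOM comparison and 95 in the AAV comparison. In TOM positive cells 47 of 104 tested genes were lower and 4 were higher than in TOM negative cells, 49.0% in all, where 23.9% of all genes tested passed and 13.4% were lower. The median log2 fold change over the 104 was -2.27. The lists were chosen with earlier results of these data known. Among the lower genes, Il6, Il27, Sigirr, Il1rl1, Traf1, Ccr1, Ccr3, Ccr7, Cxcr3, Tlr4, Tlr5, Tlr6 and Bcl3 had no TOM positive count. They entered the test through TOM negative libraries alone, so they could pass only as lower. Lower genes made up 8 of 9 chemokine receptors and 9 of 13 NF-kappaB feedback genes, but 8 of 21 Toll-like receptor pathway genes and 2 of 8 NF-kappaB subunit and kinase genes. Many of these genes are known from microglia, and Cx3cr1 stands in the microglia list, while Zfp36 and Dusp1 stand in the immediate early list. Of the 47 lower genes 29 kept their call whichever library was left out, and 32 of the 104 passed in either direction without TOM negative library 2.

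Among other chemokines, 4 of 13 were lower and none higher. Ccl6 had 126, 215 and 282 counts in TOM positive libraries, against 3817, 4046 and 2952 counts in TOM negative libraries (log2 fold change -4.49 ± 0.26, SE, adjusted p = 0.000113). Cxcl14, a chemokine gene also made by neurons and astroglia, was lower by less (-0.99 ± 0.16, adjusted p = 0.00519). Ccl5 and Ccl9 passed too, but not whichever library was left out. Of other cytokines 5 of 15 were lower, among them Tgfb1, a suppressor of inflammation (-4.53 ± 0.41, adjusted p = 0.000588), and Il16 (-6.38 ± 1.05, adjusted p = 0.00604). Il6, Il27 and Ltb passed without holding in every leave-one-out fit. Il4, the cytokine of type-2 immunity, was higher with 36, 90 and 39 counts in TOM positive libraries, against 2, 4 and 2 counts in TOM negative libraries (adjusted p = 0.0223), but passed in only 1 of 6 leave-one-out fits.

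Of the interleukin-1 and interleukin-18 receptor genes, 1 was higher and 2 were lower. Il1rap, the accessory chain that the interleukin-1 receptor needs to signal, was higher with 4735, 5432 and 8338 counts in TOM positive libraries, against 523, 388 and 1436 counts in TOM negative libraries. Its log2 fold change was 2.67 ± 0.47 (SE, adjusted p = 0.00823). Sigirr, an inhibitory receptor of the same family, had 0 counts in TOM positive libraries, against 121, 264 and 197 counts in TOM negative libraries, and was at least 246-fold lower (adjusted p = 0.00390). Il1rl1 was also lower, though in only 2 of 6 leave-one-out fits, and 2 of the 5 tested receptors did not pass. In the TNF pathway 5 of 10 genes were lower. They were the receptor genes Tnfrsf1a (-2.40 ± 0.21, adjusted p = 0.000506) and Tnfrsf1b, the adaptor genes Traf1 and Traf2 (-1.34 ± 0.25, adjusted p = 0.0103), and Cflar, an inhibitor of death receptor signalling. Cflar passed in 1 of 6 leave-one-out fits and Tnfrsf1b, Traf1 and Traf2 in 5. Birc2, a ubiquitin ligase gene of that pathway, was higher (1.21 ± 0.33, adjusted p = 0.0366) and passed in 1 of 6 leave-one-out fits.

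Ccrl2, a receptor that presents chemerin without signalling, had 182, 364 and 447 counts in TOM positive libraries, against 1843, 1773 and 1509 counts in TOM negative libraries (-2.76 ± 0.27, adjusted p = 0.000743). Ccr1, Ccr3, Ccr7 and Cxcr3 had no count in TOM positive libraries and were lower, as were Cx3cr1 and Ackr3. Of these, Ccr3 and Ackr3 passed in 1 of 6 leave-one-out fits and Cxcr3 in 4. Of 10 inflammasome genes 4 were lower, namely the adaptor gene Pycard (-6.06 ± 0.63, adjusted p = 0.000970), the ATP-gated channel gene P2rx7 (-2.12 ± 0.25, adjusted p = 0.00163), Casp8 and Gsdmd. Casp8 passed in 4 and Gsdmd in 1 of 6 leave-one-out fits. Of the Toll-like receptor pathway, Tlr2, Tlr4, Tlr5, Tlr6, Cd14, Ly96, Myd88 and Irak2 were lower, and all 8 kept their call whichever library was left out. Tlr6 had 0 counts in TOM positive libraries, against 379, 305 and 255 counts in TOM negative libraries, and was at least 396-fold lower (adjusted p = 0.00182).

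Of 8 genes for NF-kappaB subunits and their kinases, 2 were lower, Nfkb1 (-2.36 ± 0.33, adjusted p = 0.00319) and Rela, which passed in 5 of 6 leave-one-out fits. Chuk, which encodes the kinase IKK-alpha, was higher with 1890, 2220 and 2343 counts in TOM positive libraries, against 216, 178 and 406 counts in TOM negative libraries (2.72 ± 0.34, adjusted p = 0.00200). The feedback genes that were lower were Nfkbia, Nfkbie, Nfkbiz, Nfkbid, Bcl3, Zfp36, Dusp1, Socs3 and Ier3, of which Nfkbie and Nfkbiz passed in 2 of 6 leave-one-out fits. Zfp36, whose product destabilises Tnf mRNA, had 1617, 2642 and 3003 counts in TOM positive libraries, against 42091, 38041 and 37542 counts in TOM negative libraries (-4.38 ± 0.16, adjusted p = 5.66e-05). Nfkbid was also much lower (-5.56 ± 0.28, adjusted p = 7.90e-05).

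**Figure D5:**
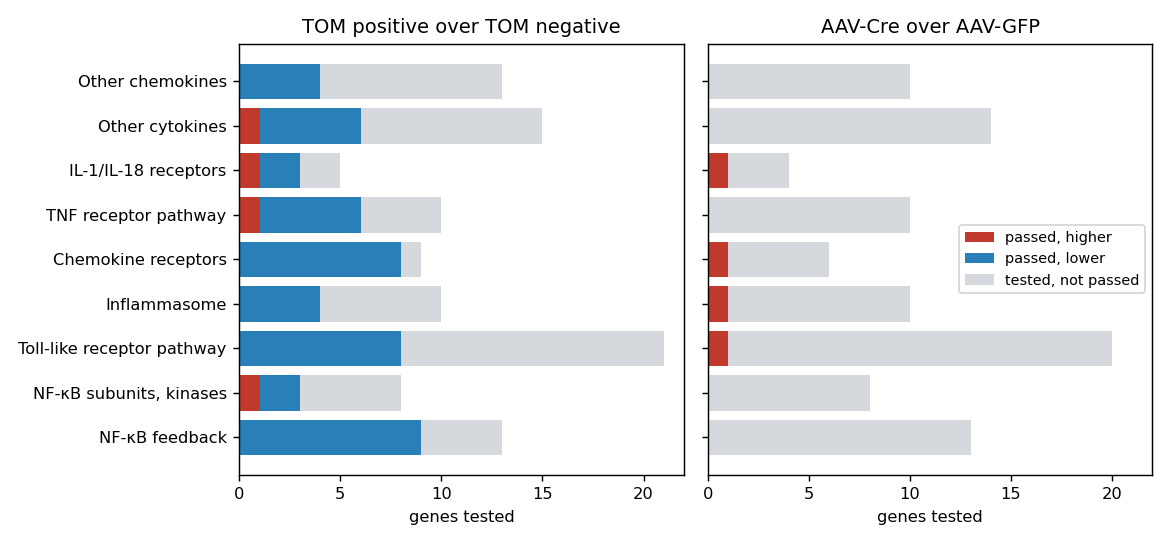
Number of tested genes in each of 9 pathway lists that passed higher, passed lower or did not pass, for TOM positive over TOM negative cells on the left and AAV-Cre over AAV-GFP cells on the right. On the left 47 genes passed lower and 4 higher; on the right 4 genes passed, all higher.

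In AAV-Cre cells 4 of 95 tested pathway genes passed, all higher than in AAV-GFP cells, 4.21% where 2.60% of all genes passed. The median log2 fold change over the 95 was 0.58. Ccrl2 had 1573, 2396 and 1383 counts in AAV-Cre libraries, against 347, 250 and 290 counts in AAV-GFP libraries (2.65 ± 0.32, SE, adjusted p = 0.0202), and passed unless an AAV-GFP library was left out. Il1rap, the accessory receptor chain, had 2656, 2327 and 2342 counts in AAV-Cre libraries, against 986, 429 and 313 counts in AAV-GFP libraries (2.22 ± 0.36, adjusted p = 0.0292). P2rx7, which starts inflammasome assembly when ATP is released, had 946, 1115 and 1006 counts in AAV-Cre libraries, against 461, 309 and 279 counts in AAV-GFP libraries (1.63 ± 0.28, adjusted p = 0.0324). Cd14, the co-receptor for bacterial lipopolysaccharide, had 2814, 5376 and 2663 counts in AAV-Cre libraries, against 1234, 391 and 851 counts in AAV-GFP libraries (2.25 ± 0.45, adjusted p = 0.0497). All 4 had groups that did not overlap, and Il1rap, P2rx7 and Cd14 missed the threshold whichever library was left out.

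Further genes with the smallest p of their lists did not pass. Tnfaip3, which encodes the NF-kappaB inhibitor A20, had 597, 2071 and 1436 counts in AAV-Cre libraries, against 185, 224 and 53 counts in AAV-GFP libraries (log2 fold change 3.23 ± 0.68, adjusted p = 0.0516). Osm, a cytokine gene of the interleukin-6 family, had 366, 588 and 307 counts in AAV-Cre libraries, against 9, 47 and 44 counts in AAV-GFP libraries (3.59 ± 0.81, adjusted p = 0.0556). Lif, of the same family, went the other way with 0, 0 and 2 counts in AAV-Cre libraries, against 74, 31 and 31 counts in AAV-GFP libraries (-5.70 ± 1.49, adjusted p = 0.0829). Il1r1, the signalling receptor for interleukin-1, had 0 counts in AAV-Cre libraries, against 38, 43 and 16 counts in AAV-GFP libraries, at least 30.9-fold lower (adjusted p = 0.0548). Il1r1 entered the test through AAV-GFP libraries alone, and AAV-Cre libraries had a count for fewer genes in all. Endothelial cells are a known site of Il1r1, and their summed level was lower, as given above; its part in Il1r1 was not tested. Tnfrsf1b (2.00 ± 0.42, adjusted p = 0.0515) and Nfkbiz (2.45 ± 0.58, adjusted p = 0.0605) were also short of the threshold. So were Adam17, which encodes the protease that sheds tumour necrosis factor (1.54 ± 0.39, adjusted p = 0.0774), and Cx3cr1, the fractalkine receptor gene (1.20 ± 0.30, adjusted p = 0.0708). Casp4, an inflammatory caspase gene, had 109, 40 and 71 counts in AAV-Cre libraries, against 4, 10 and 9 counts in AAV-GFP libraries (3.19 ± 0.97, adjusted p = 0.129). Traf6, an adaptor gene of Toll-like and interleukin-1 receptors, had a log2 fold change of 0.88 ± 0.42 (adjusted p = 0.311). Cxcl14 (-0.93 ± 0.30, adjusted p = 0.157) and Cxcl16 (2.05 ± 0.75, adjusted p = 0.196) had the smallest p of the 10 other chemokines tested. Of the 8 NF-kappaB subunit and kinase genes, Rela (-0.68 ± 0.37, adjusted p = 0.381) and Ikbkb (0.51 ± 0.36, adjusted p = 0.508) had the smallest p.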

How the data were processed

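Sorted cells were lysed in Trizol, RNA was cleaned with the NucleoSpin RNA XS kit and libraries were made with the SMART-Seq mRNA LP kit, per the labels' protocols. The authors used FastQC, Trim Galore, STAR and featureCounts with mm10, per the submitters' processing notes. The deposited values are raw counts per gene name. For the AAV libraries, featureCounts 2.0.1 counted read pairs on GENCODE vM30 without strand, per the file headers; the TOM table has no such header. vM30 belongs to a later assembly than mm10, and no coordinates were converted.

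Counts were tested in R 4.3.3 with edgeR 4.0.16 (TMM, filterByExpr with a minimum count of 10, quasi-likelihood test, two-sided, Benjamini-Hochberg over all genes tested, threshold 0.05), separately for the 6 TOM and the 6 AAV libraries. All 10 genes passed the filter in both, Il1b and Cxcl10 in the TOM table through TOM negative libraries alone. The fit was tested on simulated data. CPM were computed on TMM-scaled library sizes. A fold against a group with no count uses 3 counts over that group as a floor. No 2 libraries of a group agreed within sampling noise (chi-square per degree of freedom at least 47.7). DESeq2 1.42.0, other scalings, no filter, a replicate block and leaving out each library were the alternatives. The genes and lists were chosen with earlier results of these data known. Named genes were the 10 cytokines, the 2 with the smallest p in each list, those that passed, and the 5 most like Il1b; others were named after their values were seen. A gene of the chemokine receptor list is counted but not reported by name here.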

Additional observations from a re-analysis of the deposited data

How the results depend on the processing

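Leaving out each library gave 1511 to 3547 called genes in the TOM comparison (main count 3635), 32 to 56 pathway genes (51) and 5 to 8 of the 10 cytokines (8), with the lowest counts of genes and cytokines without TOM negative library 2. In the AAV comparison it gave 0 to 296 called genes (main count 400), 0 to 3 pathway genes (4) and 8 to 9 cytokines without overlap (8). No gene passed without AAV-GFP library 1 or 3, where 2609 and 2342 had an unadjusted p under 0.05, and 2 passed without AAV-GFP library 2. DESeq2 called 1531 genes and 17 pathway genes in the AAV comparison, and no count filter 712 and 10. The labels do not say that replicate numbers pair libraries, same-numbered libraries did not deviate together (correlations -0.134 to 0.0597) and none correlated best with its own number. With the replicate number as a block, edgeR called 1987 TOM genes, 6 of the cytokines (Ccl2 and Cxcl10 missed, adjusted p = 0.0600 and 0.0885), 0 AAV genes (2013 at an unadjusted p under 0.05) and 0 AAV pathway genes. Unscaled library totals shifted the median log2 fold change of all genes by 0.26 (TOM) and 0.16 (AAV). They turned the split of higher and lower calls to 2204 and 1532 in the TOM comparison, against 1589 and 2046, and to 127 and 241 in the AAV comparison, against 97 and 303. Without 1 library, the TOM log2 fold change of Ccl7 ranged from -1.25 to 0.073, against -0.51 with all, and the sign turned without TOM positive library 1. The cause of these differences was not tested. For single genes with a test, 729 values under the alternatives kept direction and side of the threshold, 122 lost a call, 17 gained one and 1 reversed. The AAV fold changes of the 10 cytokines carry no test. Of their values under the alternatives, 105 stayed within the SE of the main log2 fold change and 5 moved beyond it.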
